A study of Mus musculus with 37 samples.

Results

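The genes described here are the 6 Slitrk genes (Slitrk1, Slitrk2, Slitrk3, Slitrk4, Slitrk5 and Slitrk6) and the 3 genes of the Lrrc4 family (Lrrc4, Lrrc4b and Lrrc4c), 9 of the 25239 genes in a table of raw counts from mouse hearts at embryonic day E10.5. They were listed by symbol as complete families, and the families were chosen by the count levels of 2 of their genes. Earlier results of these same data had named Slitrk5 as low wherever hearts with 1 working Nipbl allele were compared with hearts that had both. Lrrc4b had been named as low only in hearts with 1 working allele of both Nipbl and Isl1, against wild-type and against Isl1 +/- hearts. The levels of both genes in all these comparisons are therefore a description and carry no test. The question taken up is how the whole families behave across the 4 genotypes, and whether Isl1 genotype moves them. Comparisons that differ in Isl1 alone did not lead to that choice, but they share libraries with those that did.

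Hearts came from a cross between Stra8-iCre; Nipbl Flox/+ males and Isl1 Cre/+ females. Besides the + allele of their written genotype, the males pass on either the Flox allele, which works as a wild-type allele, or a null allele called FIN. In the females 1 Isl1 allele holds a Cre recombinase gene and no longer works. The cross gave 4 genotypes, and bulk RNA sequencing gave 37 libraries: wild-type hearts (Nipbl +/+; Isl1 +/+, n = 10), Isl1 +/- hearts (n = 9), Nipbl +/- hearts (n = 9) and double heterozygotes (Nipbl +/-; Isl1 +/-, n = 9). The Isl1 +/- hearts and the double heterozygotes carry the Isl1 Cre allele, so a Cre gene comes with the Isl1 genotype. In every Isl1 comparison, loss of the Isl1 allele and presence of Cre cannot be told apart. Whether that Cre acted on an inherited Flox allele was not tested. The labels do not say which embryos inherited the Flox allele or the Stra8-iCre transgene, nor whether a library was made from 1 heart or from several, so the p-values below measure the spread between these libraries. Each library also carries a set number (1, 2, 5, 6 or 7) in its label, whose meaning is not spelled out there. Sets 2, 5 and 6 hold all 4 genotypes, set 1 holds 3 wild-type and 3 Isl1 +/- libraries, and set 7 holds 1 double heterozygote, replicate 2. Set number was a factor in the fit unless stated otherwise, which leaves the fitted changes of the double heterozygotes resting on 8 libraries.

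Slitrk and Lrrc4 genes encode cell surface proteins with leucine-rich repeats outside the cell and a single pass through the membrane. They are best known from neurons, where they sit on one side of a synapse and bind a partner on the other. Slitrk proteins bind receptor tyrosine phosphatases of the LAR family (Ptprd, Ptprs). The Lrrc4 family, also called netrin-G ligands, pairs Lrrc4c with netrin-G1 (Ntng1), Lrrc4 with netrin-G2 (Ntng2), and Lrrc4b with the LAR family (Ptprf, Ptprd, Ptprs). Nipbl encodes the loader of cohesin, a ring complex that extrudes loops of chromatin. Isl1 codes for a LIM-homeodomain factor of the second heart field.

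Library depth was 23.4 to 51.0 M counts (median 36.2 M). Markers of the labelled tissue were present throughout: the 10 cardiomyocyte markers summed to between 29810 and 45890 CPM, counts scaled to a common library size, in every library. Mean Nipbl was 60.0 CPM in wild-type hearts, 61.5 in Isl1 +/-, 39.3 in Nipbl +/- and 38.1 in double heterozygotes. The library labelled Nipbl +/- replicate 2 went against its label with 72.4 CPM of Nipbl, and without it the Nipbl +/- mean was 35.2 CPM. Values of Slitrk5 and Lrrc4b are given below with and without it. In the library labelled Nipbl +/- replicate 9 the 9 markers of foregut and liver summed to 357.7 CPM, against at most 35.5 CPM in any library of the other genotypes. It held 17.8 CPM of Slitrk5 and 30.3 CPM of Lrrc4b, close to the medians of its group, and without it the changes against wild-type described below were -0.94 for Slitrk5 and -0.41 for Lrrc4b. CPM values are scaled by the trimmed mean of M-values (TMM), and changes are log2 changes from the edgeR quasi-likelihood fit over 15046 genes, with their standard errors (SE).

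Slitrk1 (chr14:108908800-108914158, minus strand), Slitrk6 (chr14:110748580-110755149, minus) and Slitrk5 (chr14:111675097-111683141, plus) follow one another on chromosome 14 in GRCm38 (GENCODE M21), with gaps of 1.834 Mb between Slitrk1 and Slitrk6 and 0.92 Mb between Slitrk6 and Slitrk5. No annotated protein-coding gene lies in either gap. Slitrk4 (chrX:64264885-64276996, minus) and Slitrk2 (chrX:66649318-66661393, plus) lie 2.372 Mb apart on the X chromosome, and Slitrk3 (chr3:73047265-73057803, minus) lies alone. In all 6 Slitrk genes the coding sequence sits in 1 exon. Lrrc4b (chr7:44429018-44463351, plus) lies in a dense region, 28.8 kb from Syt3 on one side and 2.0 kb from Aspdh on the other. Lrrc4 (chr6:28661831-28831747, minus) overlaps the span of Snd1 without sharing exon bases with it, and Lrrc4c (chr2:96318169-97631666, plus) is the longest of the 9 with a span of 1313498 bases.

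RefSeq promoter windows (GRCm38.p6, from 250 bases before to 50 bases after an annotated start) were found for 8 of the 9 genes. The windows of 4 genes are shown because they set the pair with the low levels, Slitrk5 and Lrrc4b, beside another member of each family. These are Slitrk6, next to Slitrk5 on chromosome 14 and barely detected, and Lrrc4, measured well and not low. Capitals mark CG dinucleotides. The windows are chr14:111675777-111676076 (plus) for Slitrk5, chr14:110755100-110755399 (minus) for Slitrk6, chr7:44442237-44442536 (plus) for Lrrc4b and chr6:28831698-28831997 (minus) for Lrrc4, each written 5′ to 3′ on the strand of the gene.
Slitrk5: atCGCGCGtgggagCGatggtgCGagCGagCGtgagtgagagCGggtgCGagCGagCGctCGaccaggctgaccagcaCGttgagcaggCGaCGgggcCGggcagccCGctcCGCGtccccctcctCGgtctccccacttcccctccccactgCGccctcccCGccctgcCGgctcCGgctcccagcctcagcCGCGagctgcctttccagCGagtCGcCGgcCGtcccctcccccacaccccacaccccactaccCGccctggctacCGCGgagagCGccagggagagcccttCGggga
Slitrk6: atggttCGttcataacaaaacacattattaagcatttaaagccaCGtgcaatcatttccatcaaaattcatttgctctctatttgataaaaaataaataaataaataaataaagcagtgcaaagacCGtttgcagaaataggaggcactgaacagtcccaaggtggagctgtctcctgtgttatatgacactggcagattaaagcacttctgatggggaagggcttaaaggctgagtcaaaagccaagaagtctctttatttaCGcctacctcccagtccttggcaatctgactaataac
Lrrc4b: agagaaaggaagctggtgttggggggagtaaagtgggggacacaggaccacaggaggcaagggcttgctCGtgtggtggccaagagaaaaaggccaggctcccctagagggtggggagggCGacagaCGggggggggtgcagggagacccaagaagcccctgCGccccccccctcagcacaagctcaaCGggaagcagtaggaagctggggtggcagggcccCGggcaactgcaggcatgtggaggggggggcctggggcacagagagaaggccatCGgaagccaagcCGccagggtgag
Lrrc4: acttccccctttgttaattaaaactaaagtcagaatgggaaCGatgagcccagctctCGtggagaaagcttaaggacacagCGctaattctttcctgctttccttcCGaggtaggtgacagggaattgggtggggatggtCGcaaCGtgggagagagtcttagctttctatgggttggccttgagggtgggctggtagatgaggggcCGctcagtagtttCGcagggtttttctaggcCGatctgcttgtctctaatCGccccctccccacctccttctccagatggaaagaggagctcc

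The Slitrk5 window held 35 CG dinucleotides and was 74.3% G or C. Over all 32841 windows of the RefSeq table the median was 7 CG dinucleotides and 52.7% G or C, and 93.0% of windows held fewer CG dinucleotides than that of Slitrk5. The Slitrk6 window held 4 (38.3% G or C), Lrrc4b held 8 (66.3%) and Lrrc4 held 10 (52.7%). The windows of Slitrk5 and Lrrc4b sit at RefSeq starts that lie inside the GENCODE spans given above, downstream of the first base of each gene, so other starts of these genes are not covered. The GC box GGGCGG, searched on both strands and itself holding a CG, matched 2 times in the Slitrk5 window and 0 times in the other 3 windows, and 35.7% of all windows held a match. The homeobox core TAAT, searched on both strands, matched 4 times in Slitrk6 and in Lrrc4 and 0 times in Slitrk5 and Lrrc4b, against 58.0% of all windows with a match. A TATAAA match was absent from all 4 windows and present in 13.6% of all. These matches describe letters in 300 bases only.

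Per kilobase of exon, which allows genes to be set side by side, the order in wild-type hearts was clear at the top and blurred at the bottom. Lrrc4b led with 13.0 ± 1.54 CPM per kb (SD, n = 10), and Slitrk5 followed with 5.69 ± 1.10. No wild-type library of Slitrk5 reached the lowest of Lrrc4b (7.31 against 10.6 CPM per kb). Lrrc4 came next with 0.884 ± 0.230 and Slitrk4 with 0.455 ± 0.106, and the libraries of this pair overlapped. Slitrk2 (0.0733 ± 0.0211) and Slitrk3 (0.0627 ± 0.0392) could not be ordered within their spread, and Lrrc4c, Slitrk6 and Slitrk1 lay lower still at means of 0.0222, 0.00719 and 0.00097 CPM per kb. Exon lengths are those of GENCODE M21, and the annotation behind the deposited counts is not given in the sources used here. The order of the top 4 was the same in each of the other 3 genotypes.

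**Figure D1:**
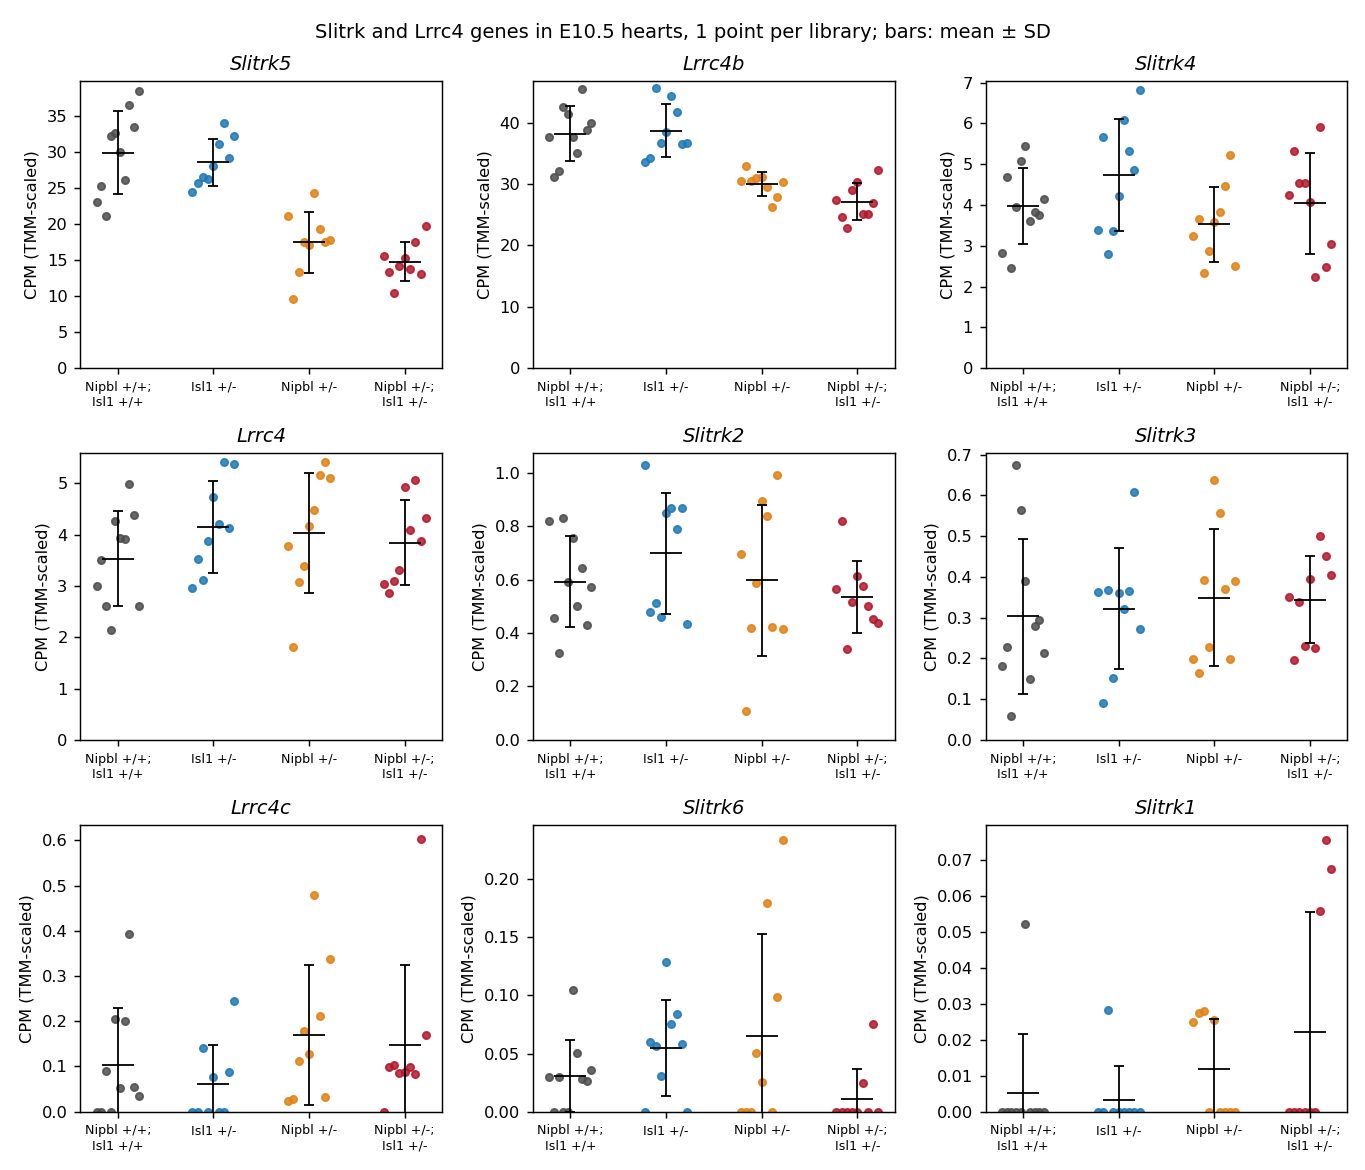
Level of each of the 9 genes in CPM after TMM scaling (vertical axis, linear and starting at 0, a different range in each panel) in the 4 genotypes (horizontal axis), with 1 point per library and bars for mean ± SD. Slitrk5 and Lrrc4b sit lower in both Nipbl +/- genotypes, with Slitrk5 means of 29.95, 28.65, 17.52 and 14.78 CPM from left to right, while the other panels show groups that overlap.

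Among the 6 members that entered the fit, Slitrk5 had the lowest level relative to wild-type in hearts lacking 1 Nipbl allele. Its product is a Slitrk protein of neurons whose loss in mice gives excessive grooming. In wild-type hearts it ran from 21.2 to 38.5 CPM with a median of 31.2, and in Isl1 +/- hearts from 24.5 to 34.0 with a median of 28.1. In Nipbl +/- hearts it ran from 9.59 to 24.3 CPM with a median of 17.6, and in double heterozygotes from 10.48 to 19.8 with a median of 14.1. Every double heterozygote lay below every wild-type and every Isl1 +/- heart, and 8 of 9 Nipbl +/- hearts lay below every wild-type heart. The overlap came from 1 Nipbl +/- heart of set 6, which lay above 2 wild-type hearts of set 1.

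The fitted log2 change of Slitrk5 was -0.91 (SE 0.12) in Nipbl +/- against wild-type hearts, a level 46.6% below it. It was -1.09 (SE 0.12) in double heterozygotes against wild-type, and -1.06 (SE 0.13) in double heterozygotes against Isl1 +/- hearts. The first 2 of these comparisons share the wild-type libraries and the last 2 share the double heterozygotes. Taken set by set, mean log2 CPM in Nipbl +/- hearts minus that in wild-type hearts was -1.07, -1.05 and -0.71 in sets 2, 5 and 6. The same quantity for double heterozygotes against wild-type was -1.27, -1.14 and -0.92. Libraries of the groups compared did not overlap within any of these sets. In bulk hearts, fewer cells that express a gene and less RNA per cell cannot be told apart.

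The library labelled Nipbl +/- replicate 2, with its high Nipbl, held the lowest Slitrk5 of all 37 libraries (9.59 CPM). Its Lrrc4b was the highest of the Nipbl +/- group at 32.9 CPM, and its Nes, listed below among neuroepithelial markers, was at 74.3 CPM against a median of 296.5 over all libraries. Without it the Nipbl +/- mean of Slitrk5 moved from 17.5 ± 4.24 to 18.5 ± 3.23 CPM (SD, n = 9 and 8) and the log2 change against wild-type from -0.91 to -0.83 (SE 0.10). The Nipbl +/- mean of Lrrc4b moved from 30.0 ± 1.94 to 29.7 ± 1.72 CPM and its log2 change against wild-type from -0.40 to -0.41 (SE 0.07).

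Lrrc4b, the netrin-G ligand family member that binds LAR-type phosphatases, was lower by a smaller amount and with a tighter spread. It ran from 31.2 to 45.5 CPM in wild-type hearts (median 38.3) and from 33.7 to 45.6 in Isl1 +/- hearts (median 36.7). It ran from 26.3 to 32.9 CPM in Nipbl +/- hearts (median 30.5) and from 22.9 to 32.3 in double heterozygotes (median 26.9). Each Nipbl +/- heart and each double heterozygote lay below every Isl1 +/- heart, while 7 of 9 and 8 of 9 lay below every wild-type heart. The fitted log2 change was -0.40 (SE 0.07) in Nipbl +/- against wild-type, -0.56 (SE 0.07) in double heterozygotes against wild-type, and -0.57 (SE 0.07) in double heterozygotes against Isl1 +/- hearts. Within sets 2, 5 and 6 the first of these was -0.32, -0.42 and -0.57 and the second -0.54, -0.57 and -0.72, with no overlap of libraries within a set.

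**Figure D2:**
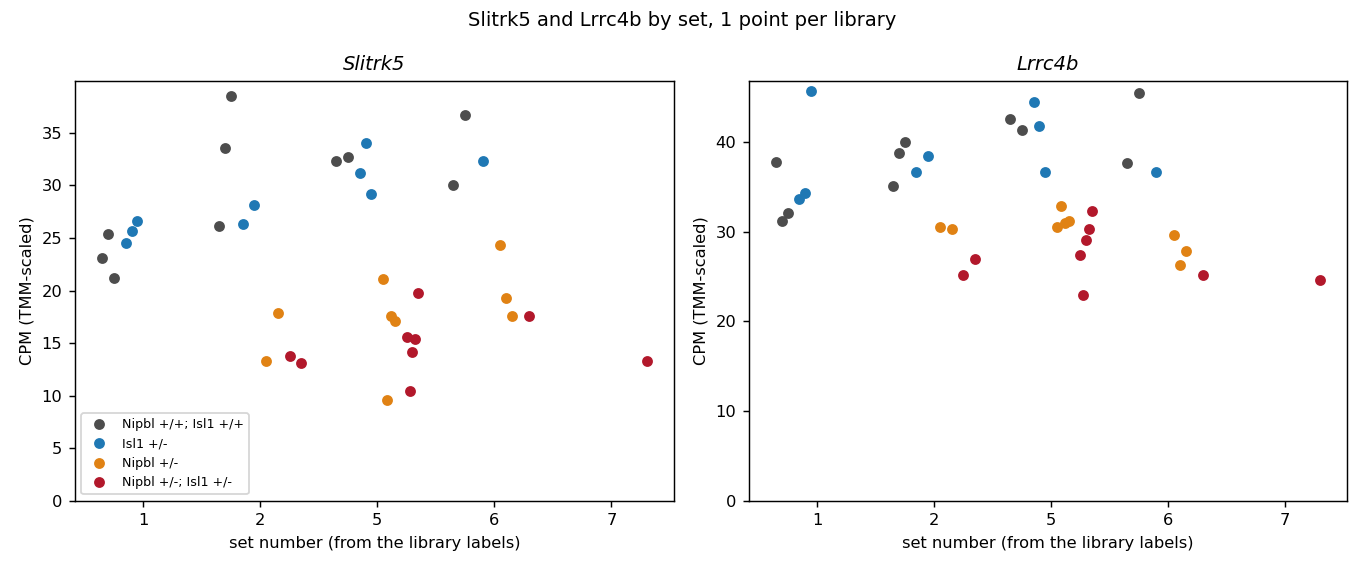
Slitrk5 and Lrrc4b in CPM after TMM scaling (vertical axes, starting at 0) by set number (horizontal axis), 1 point per library, coloured by genotype. Within sets 2, 5 and 6 the Nipbl +/- and double heterozygous libraries sit below the wild-type and Isl1 +/- libraries of the same set, and the set 1 libraries, wild-type and Isl1 +/- only, hold between 21.16 and 26.57 CPM of Slitrk5.

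Of the 9 genes, 6 passed the filter on low counts and entered the fit: Slitrk2, Slitrk3, Slitrk4, Slitrk5, Lrrc4 and Lrrc4b. Slitrk1, Slitrk6 and Lrrc4c did not. In Nipbl +/- against wild-type hearts 2 of the 6 were past the threshold and lower (adjusted p below 0.05 over all genes), where 0.518% of the 15046 genes tested were. In double heterozygotes against wild-type the count was again 2 of 6, beside 0.824% of all genes, and against Isl1 +/- hearts 2 of 6 beside 0.425%. The same pair, Slitrk5 and Lrrc4b, made up each count, and since these comparisons led to the choice of the genes nothing is read from the shares. The median log2 change over the 6 was -0.25, -0.26 and -0.49 in these 3 comparisons, beside 0.01, 0.00 and 0.00 over all genes tested. When both Nipbl +/- genotypes were set against both Nipbl +/+ genotypes the changes were -0.98 (SE 0.09) for Slitrk5, -0.49 (SE 0.05) for Lrrc4b and -0.43 (SE 0.11) for Slitrk4, and all 3 were past the threshold, beside 1.36% of all genes lower. This average is made from the same comparisons, so nothing is read from that count either.

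Slitrk4, an X-linked Slitrk gene, was thus another member with a lower fitted level, but over all sets together its libraries overlapped in each comparison. It ran from 2.46 to 5.45 CPM in wild-type hearts (median 3.90), from 2.81 to 6.81 in Isl1 +/- (median 4.86), from 2.32 to 5.21 in Nipbl +/- (median 3.57) and from 2.22 to 5.90 in double heterozygotes (median 4.25). The level differed between sets, with a median of 3.36 CPM in set 2 and 5.21 in set 6. Within sets 2, 5 and 6, mean log2 CPM in Nipbl +/- hearts minus that in wild-type hearts was -0.66, -0.43 and -0.03, with no overlap of libraries in sets 2 and 5. For double heterozygotes against Isl1 +/- hearts it was -0.67, -0.41 and -0.20, again with no overlap in these sets, set 6 holding 1 library of each. For double heterozygotes against wild-type it was -0.69 and -0.15 in sets 2 and 5, with overlap in set 5, and 0.36 in set 6, where 1 double heterozygote lay above both wild-type hearts. The averaged change fell short of the threshold when the set term was left out (-0.20, adjusted p = 0.319), and without set 2 (-0.31, adjusted p = 0.356) or set 5 (-0.45, adjusted p = 0.192). It also did so with the replicate number in place of the set number (-0.18, edgeR adjusted p = 0.378). Xist, the RNA of the inactive X chromosome, was high in 7 of 10 wild-type, 7 of 9 Isl1 +/-, 5 of 9 Nipbl +/- and 7 of 9 double heterozygous libraries, and with its level as a covariate the averaged change of Slitrk4 was -0.43.

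The libraries of Lrrc4, the ligand of netrin-G2, and of the low-level pair Slitrk2 and Slitrk3 overlapped between all genotypes over all sets together. Lrrc4 ran from 2.14 to 4.99 CPM in wild-type hearts (median 3.71), 2.96 to 5.41 in Isl1 +/- (median 4.14), 1.80 to 5.41 in Nipbl +/- (median 4.16) and 2.86 to 5.07 in double heterozygotes (median 3.88). Its log2 change was 0.05 (SE 0.15) in Nipbl +/- and 0.13 (SE 0.16) in double heterozygotes against wild-type. Without Nipbl +/- replicate 2, which held the lowest Lrrc4 of all libraries, the first of these was 0.135 (SE 0.132). Slitrk2, the other X-linked Slitrk gene, had means of 0.592, 0.698, 0.597 and 0.536 CPM in wild-type, Isl1 +/-, Nipbl +/- and double heterozygous hearts, from 4 to 46 counts per library. Slitrk3, which organises inhibitory synapses in the brain, had means of 0.304, 0.322, 0.349 and 0.344 CPM, from 2 to 28 counts per library. The 95% intervals of their changes against wild-type were wide, from -0.60 to 0.42 for Slitrk2 and from -0.58 to 0.60 for Slitrk3 in Nipbl +/- hearts, so changes as large as that of Lrrc4b lie inside them. Without Nipbl +/- replicate 2 the change of Slitrk2 in this comparison moved from -0.09 to 0.05 (SE 0.22). That of Slitrk3 moved from 0.01 to 0.11 (SE 0.31). In double heterozygotes against Isl1 +/- hearts the log2 change of Slitrk2 was -0.54 (95% interval -1.08 to -0.004, unadjusted p of 0.0565, edgeR adjusted p = 0.696). Within sets 2, 5 and 6 the difference in its mean log2 CPM was -0.27, -0.73 and 0.19, with no overlap of libraries in set 5 and 1 library of each genotype in set 6.

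The remaining 3 genes were at or near the limit of detection. Slitrk1 gave 13 counts over all 37 libraries and was at 0 in 28 of them. Slitrk6, known from the inner ear and retina, gave 56 counts and was at 0 in 16 libraries. Lrrc4c, the ligand of netrin-G1, gave 160 counts and was at 0 in 9 libraries. A count of 0 allows up to 3 counts, which is between 0.0589 and 0.128 CPM depending on the depth of the library, and this covers counting error only. Differences between genotypes were not tested for these 3 genes, which did not enter the fit. Group means of Slitrk1 reached at most 0.0221 CPM. Those of Slitrk6 were 0.0305, 0.0548, 0.0654 and 0.011 CPM in wild-type, Isl1 +/-, Nipbl +/- and double heterozygous hearts. The wild-type mean of Lrrc4c was 0.103 CPM and its other group means ran from 0.0611 to 0.170 CPM.

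Comparisons that differ by loss of 1 Isl1 allele alone were not among those that led to the choice of the genes, and were tested. They share libraries with those comparisons, and double heterozygotes differ from wild-type hearts in Isl1 too. For Slitrk5 and Lrrc4b the values of Isl1 loss are therefore a description and carry no test. Isl1 itself was at 7.37 ± 2.24 CPM in wild-type (SD, n = 10), 6.28 ± 1.76 in Isl1 +/-, 13.0 ± 2.82 in Nipbl +/- and 9.50 ± 3.51 in double heterozygous hearts (n = 9 each). Its log2 change was -0.20 (SE 0.18, edgeR adjusted p = 0.877) in Isl1 +/- against wild-type hearts, whose libraries overlapped, and -0.47 (SE 0.19, edgeR adjusted p = 0.518) in double heterozygotes against Nipbl +/- hearts. The Isl1 counts therefore give no check of the Isl1 labels. In Isl1 +/- against wild-type hearts 0 of 6 members were past the threshold, as were 0% of all genes tested. With all libraries none of the 6 had an unadjusted p below 0.05 in edgeR, and DESeq2 called 0 as well. Without Nipbl +/- replicate 2 the log2 change of Lrrc4 was 0.26 (SE 0.12), with an edgeR unadjusted p of 0.0407 and adjusted p of 0.409. The log2 change of Slitrk5 was -0.03 (SE 0.11, 95% interval -0.25 to 0.18) and that of Lrrc4b was 0.01 (SE 0.07, 95% interval -0.12 to 0.14). Neither interval reached the fitted changes described above for Nipbl loss, and for this pair that is a description. The largest fitted changes were those of Lrrc4 (0.28, SE 0.14), Slitrk2 (0.25, SE 0.25) and Slitrk4 (0.23, SE 0.13), with edgeR adjusted p-values of 0.835, 0.884 and 0.839. Without Isl1 +/- replicate 1 that of Slitrk2 was 0.12.

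On the Nipbl +/- background the answer was similar, with 0 of 6 members and 0% of all genes past the threshold in double heterozygotes against Nipbl +/- hearts. Slitrk5 had a log2 change of -0.19 (SE 0.12, 95% interval -0.42 to 0.05, edgeR adjusted p = 0.651), and 7 of 9 double heterozygotes lay below the Nipbl +/- mean. Without Nipbl +/- replicate 2 this change was -0.29 (SE 0.10), with an unadjusted p of 0.00767 and an edgeR adjusted p = 0.53. Lrrc4b had a log2 change of -0.15 (SE 0.07, 95% interval -0.29 to -0.02), the 1 member with an unadjusted p below 0.05 when all libraries were used, and its edgeR adjusted p was 0.525. Lrrc4b had been chosen through low double heterozygotes, so nothing is read from that p. For Lrrc4b 7 of 9 double heterozygotes lay below the Nipbl +/- mean, and 4 of 9 lay below every Nipbl +/- heart. DESeq2 called 0 of the 6.

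Whether the joint loss departed from the sum of the single losses was fitted as an interaction on the log2 scale. The interaction is built from the comparisons that led to the choice of Slitrk5 and Lrrc4b. For this pair its estimates are therefore a description and carry no test. The estimate was -0.15 (SE 0.16) for Slitrk5 and -0.16 (SE 0.09) for Lrrc4b, and all 6 estimates were below 0, from -0.45 to -0.02. Over all genes tested 50.5% were below 0. With 1 library left out the estimate ran from -0.102 to 0.075 for Slitrk4 and from -0.234 to 0.053 for Slitrk3. No member and 0% of all genes were past the threshold by edgeR, none had an unadjusted p below 0.05, and DESeq2 called 0. The 95% interval for Slitrk5, -0.47 to 0.16, still holds a joint loss somewhat stronger than the sum. Without Nipbl +/- replicate 2 the estimate for Slitrk5 was -0.23 (SE 0.135). Averaged over Nipbl genotypes, the change with Isl1 loss was -0.11 (SE 0.08) for Slitrk5, -0.07 (SE 0.05) for Lrrc4b and 0.22 (SE 0.10) for Slitrk4. For Slitrk5 and Lrrc4b this too is a description. Slitrk4 alone had an unadjusted p below 0.05 (edgeR adjusted p = 0.366). Without Nipbl +/- replicate 2 the averaged change of Slitrk5 was -0.17 (SE 0.07), with an unadjusted p of 0.018 and an edgeR adjusted p = 0.223. With all libraries 0 of 6 members were past the threshold, by DESeq2 too, beside 0.173% of all genes.

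**Figure D3:**
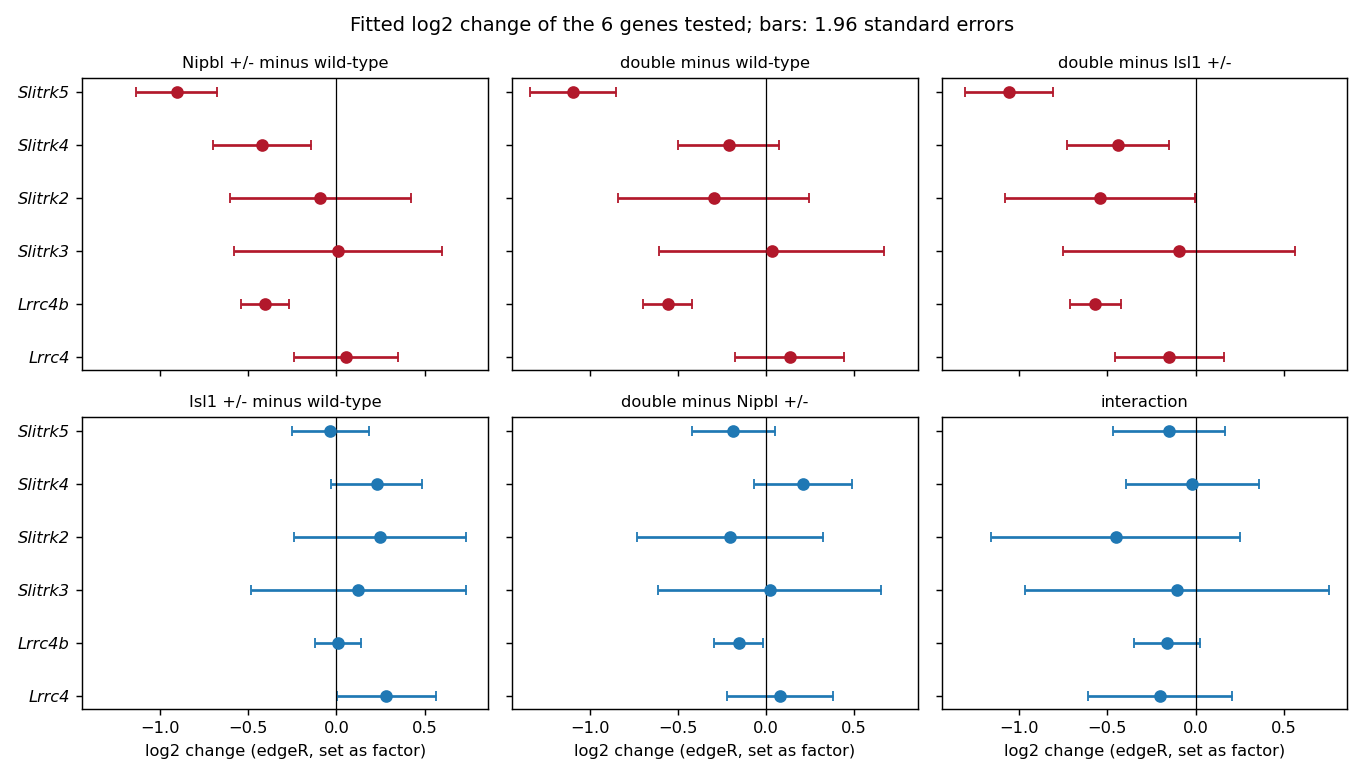
Fitted log2 change (horizontal axis) of the 6 genes tested in 6 comparisons, with bars for 95% intervals. In the upper row, the comparisons with Nipbl loss, Slitrk5 lies between -0.91 and -1.09 and Lrrc4b between -0.40 and -0.57, and in the lower row, the comparisons with Isl1 loss and the interaction, the bars of Slitrk5 cross 0 in each panel, while the bar of Lrrc4b in double heterozygotes against Nipbl +/- hearts (-0.29 to -0.02) and that of Lrrc4 in Isl1 +/- against wild-type hearts (0.001 to 0.56) do not.

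The LAR-family receptors that Slitrk proteins and Lrrc4b bind were expressed in these hearts, and none of them was past the threshold in any comparison. In wild-type hearts Ptprf was at 162.2 ± 36.96 CPM, Ptprs at 145.2 ± 21.9 and Ptprd at 33.3 ± 5.15 (SD, n = 10). Their log2 changes in Nipbl +/- against wild-type hearts were 0.01 (SE 0.11), 0.17 (SE 0.12) and 0.18 (SE 0.09). Ntng1, the partner of Lrrc4c, was low, with 0.320 ± 0.218 CPM in wild-type hearts, means of at most 0.378 in the other genotypes and a lowest value of 0 in the double heterozygotes, and it had a log2 change of 0.30 (SE 0.46) in double heterozygotes. Ntng2, the partner of Lrrc4, was higher in double heterozygotes. It ran from 1.41 to 3.03 CPM in wild-type hearts (median 2.15) and from 2.71 to 5.87 in double heterozygotes (median 5.17), 7 of 9 of which lay above every wild-type heart. In Nipbl +/- hearts it ran from 2.21 to 4.02 CPM, and 6 of 9 lay above every wild-type heart (log2 change 0.46, SE 0.15, edgeR adjusted p = 0.113). Its log2 change was 0.98 (SE 0.15, edgeR adjusted p = 0.000198) in double heterozygotes against wild-type and 0.74 (SE 0.15, edgeR adjusted p = 0.0104) against Isl1 +/- hearts. Without set 5 these were 0.92 (adjusted p = 0.122) and 0.71 (adjusted p = 0.507), and without set 6 the second was 0.70 (adjusted p = 0.075). Ntng2 shares exon bases with 6530402F18Rik, so its counts are uncertain.

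Of a list of 66 genes for partners and related leucine-rich repeat adhesion proteins, 52 were tested. In Nipbl +/- against wild-type hearts 0 were past the threshold as higher and 2 as lower, beside 1.2% and 0.518% of all genes. In double heterozygotes 2 were higher and 3 lower against wild-type (1.77% and 0.824% of all genes), and 1 was higher and 2 lower against Isl1 +/- hearts (0.532% and 0.425%). The median log2 change of the 52 was 0.14, 0.11 and 0.01 in these comparisons, beside 0.01, 0.00 and 0.00 over all genes. With both Nipbl +/- genotypes against both Nipbl +/+ genotypes 1 was higher (Ntng2) and 4 were lower (Lrrtm4, Lrrn3, Flrt3 and Slit2), beside 2.67% and 1.36% of all genes. Slit2, a secreted ligand of Robo receptors, had an averaged log2 change of -0.44 (SE 0.10, edgeR adjusted p = 0.00752), which was -0.08 (adjusted p = 0.773) without the set term and lost its call without set 2 (adjusted p = 0.189) or set 5 (adjusted p = 0.139). With the replicate number in place of the set number the change of Slit2 was 0.008 (edgeR adjusted p = 0.977). The averaged call of Flrt3 was lost without the set term (-0.14, adjusted p = 0.193, and 0.199 with the replicate number in its place) and without set 2, 5 or 6 (-0.27, -0.20 and -0.22, adjusted p = 0.0537, 0.106 and 0.0787), and that of Ntng2 without set 5 (0.54, adjusted p = 0.126). In Isl1 +/- against wild-type, double heterozygotes against Nipbl +/-, the interaction and the averaged Isl1 loss 0 of 52 were past the threshold by edgeR, with 5, 9, 4 and 11 at an unadjusted p below 0.05, beside 886, 1355, 411 and 1831 of all 15046 genes. In Nipbl +/- against wild-type hearts 20 of 52 had an unadjusted p below 0.05, beside 2267 of all genes. Some of the 20 held a far value among the Nipbl +/- libraries, such as Dlg3 (mean 25.25, highest 62.16 CPM) and Lingo3 (mean 1.19, highest 8.82 CPM). Neither this count nor the median of the 52 was taken again with a library left out.

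Lrrtm4, a synaptic leucine-rich repeat protein that binds neurexins and glypicans, had the largest change among the listed genes past the threshold. It ran from 1.15 to 1.98 CPM in wild-type hearts (median 1.66), from 1.13 to 2.37 in Isl1 +/- (median 1.30), from 0.364 to 1.26 in Nipbl +/- (median 0.918) and from 0.250 to 0.836 in double heterozygotes (median 0.641). Every double heterozygote and 8 of 9 Nipbl +/- hearts lay below every wild-type heart, on 10 to 84 counts per library. Its log2 change was -1.09 (SE 0.21, edgeR adjusted p = 0.00331) in Nipbl +/- and -1.55 (SE 0.23, edgeR adjusted p = 6.71e-05) in double heterozygotes against wild-type. Without set 5 the first of these was -1.08 (adjusted p = 0.0587). Against Isl1 +/- hearts the change in double heterozygotes was -1.38 (SE 0.23, edgeR adjusted p = 0.000644), and without set 5 it was -1.30 (adjusted p = 0.221). Lrrtm4 shares exon bases with Gm4409.

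Lrrn3, a leucine-rich repeat neuronal protein, had a mean of 5.18 CPM in wild-type, 5.17 in Isl1 +/-, 3.66 in Nipbl +/- and 3.39 in double heterozygous hearts. Its log2 change was -0.67 (SE 0.15, edgeR adjusted p = 0.0149) in Nipbl +/- and -0.73 (SE 0.16, edgeR adjusted p = 0.00693) in double heterozygotes against wild-type, and without set 2 these were -0.67 (adjusted p = 0.168) and -0.74 (adjusted p = 0.102). The first call was also lost without set 1, 5 or 6 and without the set term (adjusted p from 0.0509 to 0.0908), and the other without set 5 (adjusted p = 0.126). Against Isl1 +/- hearts the change of Lrrn3 in double heterozygotes was -0.78 (SE 0.16, edgeR adjusted p = 0.00929), a call lost without set 2 (adjusted p = 0.116), set 5 (adjusted p = 0.286) or the set term (adjusted p = 0.0955). Flrt2 and Flrt3, which bind Unc5 receptors and latrophilins, went opposite ways. Flrt2 rose from 38.3 ± 7.70 to 55.5 ± 8.75 CPM in double heterozygotes (log2 change 0.41, SE 0.11, edgeR adjusted p = 0.0299) and Flrt3 fell from 37.9 ± 5.05 to 32.0 ± 5.33 CPM (log2 change -0.32, SE 0.07, edgeR adjusted p = 0.0145). In Nipbl +/- hearts Flrt2 was at 50.55 ± 7.62 CPM (log2 change 0.30, SE 0.10, edgeR adjusted p = 0.127) and Flrt3 at 35.3 ± 4.98 CPM (log2 change -0.19, SE 0.07, edgeR adjusted p = 0.194). The call of Flrt2 was lost without any 1 of wild-type replicates 4, 5, 8 and 10 or double heterozygous replicates 1, 3, 5, 7 and 8, with changes from 0.37 to 0.40 and adjusted p from 0.0507 to 0.0862, and also without set 2 (adjusted p = 0.299) or set 5 (adjusted p = 0.414). The call of Flrt3 was lost without set 2 (-0.34, adjusted p = 0.0972), without set 5 (-0.25, adjusted p = 0.362) and without the set term, with or without the replicate number in its place (-0.25 and -0.24, adjusted p = 0.159 in both). Lrrn3 lies inside Immp2l and Flrt3 inside Macrod2, on the opposite strands, and whether the counts used strand is not given in the sources used here.

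**Figure D4:**
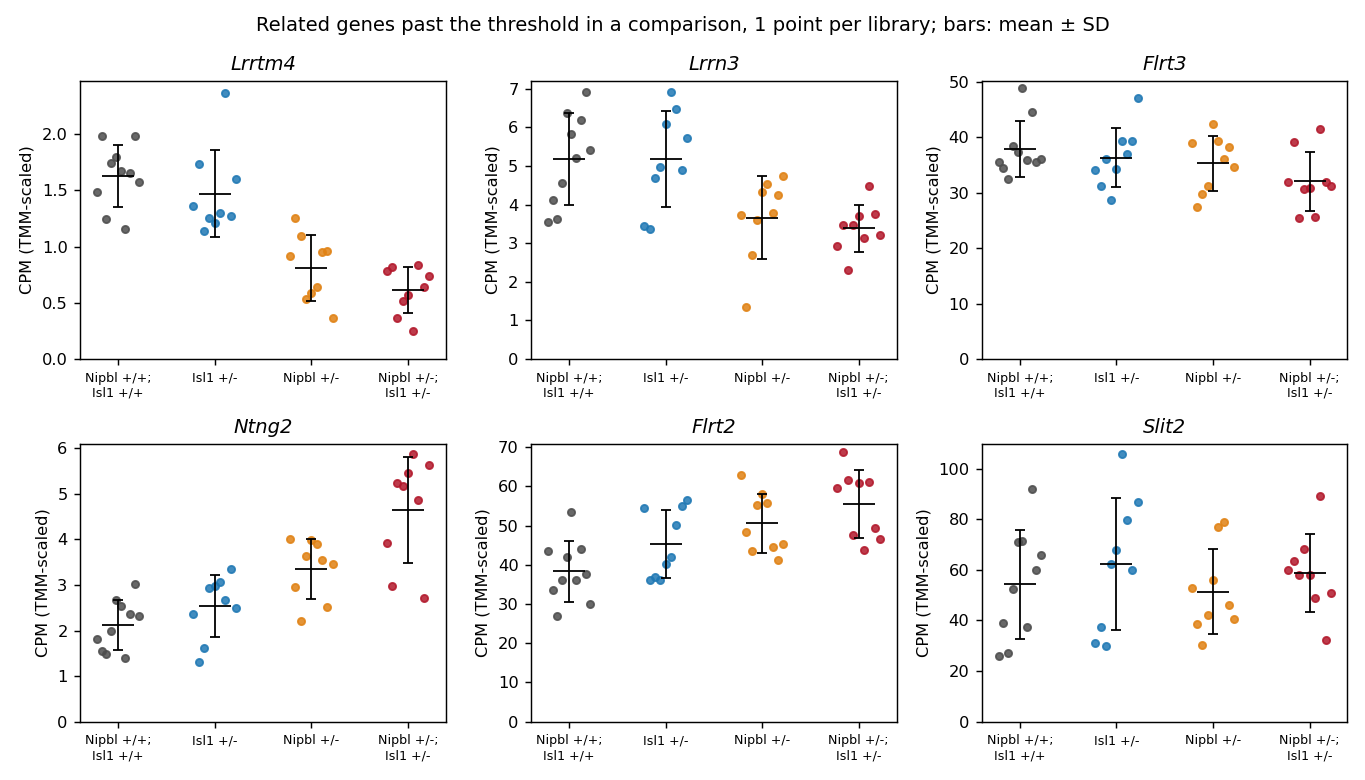
Level in CPM after TMM scaling (vertical axis, starting at 0) of the 6 listed related genes past the threshold in at least 1 comparison, by genotype, 1 point per library with mean ± SD. Lrrtm4 and Lrrn3 sit lower and Ntng2 and Flrt2 higher in double heterozygotes than in wild-type hearts, while the groups of Slit2 overlap, with means between 51.4 and 62.4 CPM. The Nipbl +/- means of Ntng2 and Flrt2 lie between those of wild-type hearts and double heterozygotes.

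The 2 nearest tested genes on each side of Slitrk5 and of Lrrc4b did not pass the threshold in Isl1 +/-, Nipbl +/- or double heterozygous hearts against wild-type, or in double heterozygotes against Isl1 +/- hearts. The nearest genes tested around Slitrk5 lie megabases away, Spry2 at 5778.3 kb on one side and Mir17hg at 3359.7 kb on the other, and had log2 changes of -0.03 (SE 0.11) and -0.13 (SE 0.23) in Nipbl +/- against wild-type hearts. The next ones out, 9330188P03Rik at 6043.0 kb and Gpc6 at 5242.2 kb, had changes of -0.06 (SE 0.17) and 0.42 (SE 0.20, edgeR adjusted p = 0.325). Around Lrrc4b, Aspdh at 2.0 kb had a log2 change of -0.43 (SE 0.29), Josd2 at 4.6 kb of -0.30 (SE 0.19), Syt3 at 28.8 kb of -0.48 (SE 0.34) and 1700008O03Rik at 43.2 kb of -0.008 (SE 0.25). All 4 errors were more than 2 times that of Lrrc4b.

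After genotype and set were fitted, the genes whose remaining library-to-library variation was most like that of Slitrk5, among 12079 genes and over 37 libraries that share depth and dissection, were Trib2 (r = 0.86), Trafd1 (r = 0.83), Lgi2 (r = 0.83), Rec8 (r = 0.82) and Igfbpl1 (r = 0.82). These r are Pearson correlations given as a description. The 37 libraries include Nipbl +/- replicate 2, which held the lowest Slitrk5 of all (9.59 CPM). No r here was computed without that library, so it may carry part of them. The log2 changes of Trib2 and Lgi2 in Nipbl +/- against wild-type hearts were -0.75 (SE 0.12) and -0.62 (SE 0.15), while that of Trafd1 was -0.07 (SE 0.07). The genes most like Lrrc4b were Tecpr1 (r = 0.72), Kcnab2 (r = 0.67), Cobl (r = 0.64), Eepd1 (r = 0.62) and Ppp1r37 (r = 0.61). Of these, Eepd1 was lower in Nipbl +/- hearts by a log2 change of -0.31 (SE 0.07) and Cobl was higher by 0.41 (SE 0.09). Slitrk5 and Lrrc4b themselves had a remaining r of 0.32 with each other.

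Since most members are neuronal genes elsewhere, markers of neural cells were read beside them. The 10 neuroepithelial markers summed to between 235.6 and 436.8 CPM in wild-type, 263.6 and 338.5 in Isl1 +/-, 80.8 and 323.5 in Nipbl +/- and 244.9 and 376.9 in double heterozygous libraries, most of it Nes. Whether Nes came from neural cells in these hearts was not tested, so this sum is no measure of neural content. Sox1, Hes5, Pax3 and Zic1 were at 0 in 34, 32, 22 and 17 of 37 libraries, and the other 6 markers were detected in all of them, with medians of 296.5 CPM for Nes, 6.84 for Sox3 and 0.197 to 0.600 for Sox2, Pax6, Fabp7 and Pou3f2. Of the 6 markers of this list that were tested, 4 had a lower and 2 a higher fitted level in Nipbl +/- against wild-type hearts, with a median log2 change of -0.21 beside 0.01 over all genes. The calls were 1 lower and 1 higher, beside 0.518% and 1.2% of all genes: Sox3 was lower (5.27 against 10.2 CPM) and Pax6 was higher (0.905 against 0.533 CPM, edgeR adjusted p = 0.0231). In double heterozygotes 1 neuroepithelial marker was past the threshold as lower against wild-type and 1 against Isl1 +/- hearts, beside 0.824% and 0.425% of all genes. With averaged Isl1 loss 1 marker of this list was past the threshold as lower, beside 0.173% in either direction, and it need not be the same marker. In wild-type, Isl1 +/-, Nipbl +/- and double heterozygous hearts mean Pax6 was 0.533, 0.318, 0.905 and 0.464 CPM. Mean Sox3 was 10.2, 9.30, 5.27 and 5.98 CPM in the same order. The 10 neuronal markers summed to medians of 35.8, 32.6, 48.4 and 42.7 CPM in wild-type, Isl1 +/-, Nipbl +/- and double heterozygous hearts. Of the 7 tested, 4 had a higher and 3 a lower fitted level in Nipbl +/- hearts against wild-type (median 0.29). With averaged Nipbl loss the median was 0.24, with 1 past the threshold as higher, beside 2.67% of all genes. The 8 markers of neural crest and glia summed to between 61.2 and 106.3 CPM in wild-type, 71.6 and 110.3 in Isl1 +/-, 87.05 and 124.0 in Nipbl +/- and 88.1 and 104.6 in double heterozygous libraries, most of it Ednrb and Erbb3, while Foxd3 and Tfap2b were at 0 in 31 and 25 libraries. Which cells the Ednrb and Erbb3 counts came from was not tested either. All 5 markers of neural crest and glia that were tested had a higher fitted level in Nipbl +/- and in double heterozygous hearts against wild-type (median log2 changes 0.20 and 0.21), with 0 past the threshold by edgeR and 2 and 0 at an unadjusted p below 0.05. With the mean level of the neural markers as a covariate the log2 change of Slitrk5 in Nipbl +/- against wild-type hearts was -1.01 (SE 0.11). Whether this covariate follows neural cells was not tested. The 7 epicardial markers had summed levels of 261.1 to 463.0 CPM in wild-type, 307.3 to 552.7 in Isl1 +/-, 406.6 to 613.9 in Nipbl +/- and 519.0 to 674.2 in double heterozygous libraries. In double heterozygotes against wild-type 7 of 7 had a higher fitted level (median log2 change 0.51), and 5 were past the threshold as higher, beside 1.77% of all genes. With Nipbl loss averaged over Isl1 genotypes 6 of 7 had a higher fitted level (median 0.28, 3 past the threshold beside 2.67% of all genes), and with Isl1 loss averaged over Nipbl genotypes 7 of 7 did (median 0.30, 1 past the threshold beside 0.173%). The 7 erythroid markers summed to between 1843 and 105500 CPM in wild-type, 813.5 and 47340 in Isl1 +/-, 495.4 and 23000 in Nipbl +/- and 1290 and 53610 in double heterozygous libraries. Of the 6 tested, 6 had a lower fitted level in Nipbl +/- against wild-type hearts (median log2 change -0.84) and 6 a higher one in double heterozygotes against Nipbl +/- hearts (median 1.53) and with averaged Isl1 loss (median 1.04), with 0 past the threshold by edgeR and 0, 5 and 6 at an unadjusted p below 0.05. Of the 5 foregut and liver markers tested, 5 had a higher fitted level with averaged Nipbl loss (median 0.43), 1 of them past the threshold, beside 2.67% of all genes. In double heterozygotes 5 were higher against wild-type (median 0.72, 1 past the threshold beside 1.77%). Against Isl1 +/- hearts 5 were higher too (median 0.89, 0 past the threshold). Of the 10 cardiomyocyte markers 8, 7 and 8 had a lower fitted level in Isl1 +/-, Nipbl +/- and double heterozygous hearts against wild-type. Their median log2 changes were -0.16, -0.15 and -0.12, with 0 past the threshold by edgeR and 3, 0 and 4 at an unadjusted p below 0.05. The part of any of these cell types in the levels of Slitrk5 and Lrrc4b was not tested.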

How the data were processed

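The submitters deposited a table of raw read counts per gene, 1 column per library, which from its values the authors did not normalize. Per the submitters' processing notes, STAR, featureCounts and the GRCm38/mm10 genome were used. Versions, annotation and strand setting are not given in the sources used here. Set number is the number after the letters IVF in the description label.

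The members, the lists and the comparisons were chosen with earlier results of these data known. Genes passing filterByExpr (minimum count 10, minimum total 15), 15046 in all, were scaled by TMM. One edgeR quasi-likelihood model (R 4.3.3, edgeR 4.0.16, limma 3.58.1) took all 37 libraries, with factors for genotype and for set. Tests were two-sided and adjusted by Benjamini-Hochberg over all genes tested, with a threshold of 0.05. The 8 comparisons set Isl1 +/-, Nipbl +/- and double heterozygous hearts against wild-type and the double heterozygotes against Isl1 +/- and Nipbl +/- hearts, and added the interaction and the averaged effect of each gene. Intervals are 95% normal intervals from the SE. Residual log2 CPM used a prior count of 2, and genes compared by it had a mean log2 CPM of at least 1. Named genes are all members, partners past the threshold or known to bind a member, the 5 genes most like Slitrk5 and Lrrc4b, and tested neighbours of both. The levels of some marker genes are not reported here.

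Alternatives changed the model (no set term, replicate number instead of set number, 2 surrogate variables from sva 3.50.0, a covariate for Xist or for 18 neural markers), the tool (DESeq2 1.42.0), the scaling (DESeq2-style size factors), the filter (none, or 10 counts in all libraries) or the libraries (without set 1, 2, 5 or 6, or without 1 library). Libraries with equal replicate numbers did not deviate together (median r 0.03 over 54 pairs, 17 of them above 0.1), so the numbers were not taken as pairs. Over 153 pairs of libraries of 1 genotype the smallest chi-square per gene was 6.64, so no library repeated another of its genotype. Pairs of different genotypes were not compared. Tables and plots were made in Python 3.11.15 (pandas 2.3.3, matplotlib 3.10.9).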

Additional observations from a re-analysis of the deposited data

Results flagged for a closer look

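In 6 of 36 combinations of gene and genotype, 1 library stood apart from the others of its genotype by a gap that made up most or much of the range. All 6 concern the 3 barely detected genes. For normally distributed values chance flags about 1 in 20 groups, a rate that was not checked for counts this close to 0. Slitrk1 was at 0.0521 CPM in wild-type replicate 6 and at 0.0284 CPM in Isl1 +/- replicate 3, with 0 in all other libraries of those genotypes. Slitrk6 was at 0.104 CPM in wild-type replicate 6, next to 0.0502, and at 0.0754 CPM in double heterozygous replicate 8, next to 0.0250. Lrrc4c was at 0.392 CPM in wild-type replicate 8, next to 0.205, and at 0.603 CPM in double heterozygous replicate 8, next to 0.169. The highest counts behind these values were 2 for Slitrk1, 4 for Slitrk6 in wild-type hearts and 16 for Lrrc4c in double heterozygotes. No library stood apart in this way for Slitrk2, Slitrk3, Slitrk4, Slitrk5, Lrrc4 or Lrrc4b.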

How the results depend on the processing

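The number of members past the threshold stayed at 2 to 3 where it was 2 or 3, and at 0 where it was 0, under each alternative named above. Slitrk5 and Lrrc4b were lower and past the threshold in the 3 comparisons with Nipbl loss under all of them, a description only, since these comparisons led to their choice. In Nipbl +/- against wild-type hearts the log2 change of Slitrk5 ran from -1.01 to -0.74 and that of Lrrc4b from -0.44 to -0.33, and with 1 library left out from -0.96 to -0.83 and from -0.43 to -0.36. Slitrk4 was past the threshold there with 2 surrogate variables (-0.42, adjusted p = 0.0483). With the replicate block in place of the set number, Slitrk5 changed by -0.74 and -0.97 in Nipbl +/- and double heterozygous hearts against wild-type, and the averaged Nipbl loss called 2 members instead of 3 (Slitrk4 -0.18, adjusted p = 0.378). The lower averaged level of Slit2 with Nipbl loss (-0.44, adjusted p = 0.00752) turned to 0.008 under this block, and the cause was not tested. For changes that were not past the threshold, 84 values with 1 library left out and 45 under other settings had the other sign, none past the threshold. Slitrk1, Slitrk6 and Lrrc4c are limited by counts of 0 to 24 per library.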
